A study of Mus musculus with 12 samples.

Results

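The genes described are 10 transcription factor and stress genes of the immediate early class: the FOS family (Fos, Fosb, Fosl1, Fosl2), the JUN family (Jun, Junb, Jund), Egr1, Myc and Ier3. They were chosen as a list of symbols, with no threshold on their values, from 55487 gene identifiers, and each of the 10 symbols matched a single mouse gene that passed the filter on low counts. Earlier results of these data were known when these genes and the other gene lists were chosen. Counts set beside the shares of all genes are therefore descriptions and not unbiased tests. RNA was sequenced from primary mouse hepatocytes in culture, in 4 groups of 3 libraries. Control cells had no treatment, and a further group was given FAC by itself, which the labels do not spell out. The Lip-1+FAC group was pretreated with liproxstatin-1, a scavenger of lipid reactive oxygen species, and the MT+FAC group with Mito-TEMPO, a scavenger of mitochondrial reactive oxygen species, in both cases on culture day 2 and before FAC. No group received a scavenger without FAC, so that an effect of a scavenger on resting cells cannot be told apart from its effect on the FAC response. The labels do not say whether the 3 libraries of a group came from separate animals or cultures, so p-values measure only the spread between these libraries, which may be technical.

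AP-1 is a transcription factor made of pairs of basic leucine zipper proteins. JUN proteins pair with each other or with FOS proteins, whereas FOS proteins need a JUN partner to bind DNA. Immediate early genes are transcribed within minutes of a signal that passes through MAP kinases, without the need for new protein, and most of their transcripts decay quickly. In the liver they are known for their rise after partial hepatectomy and after hepatocytes are isolated and plated.

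The stretches before the start sites of 3 of these genes are shown, since each holds a motif known to be bound by factors that act on immediate early genes: a JUN/ATF element, a CREB/ATF core and an EGR element. Each is the 150 bases that end at the base before the RefSeq start on build GRCm38.p6, read 5′ to 3′ on the strand of the gene, with the matched motif in capitals. The Jun stretch lies on the minus strand at chr4:95052223-95052372 and holds TGACATCA at positions -45 to -38 from the start, a variant element known to be bound by JUN paired with ATF2. The Fos stretch lies on the plus strand at chr12:85473740-85473889 and holds TGACGT, the core of the element bound by CREB and ATF proteins, at positions -66 to -61. The Fosb stretch lies on the minus strand at chr7:19310046-19310195 and holds a match to GCGNGGGCG, the element bound by EGR proteins, at positions -50 to -42.
Jun: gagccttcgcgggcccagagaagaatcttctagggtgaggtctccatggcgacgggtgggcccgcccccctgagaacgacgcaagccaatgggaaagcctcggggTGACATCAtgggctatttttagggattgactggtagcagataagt
Fos: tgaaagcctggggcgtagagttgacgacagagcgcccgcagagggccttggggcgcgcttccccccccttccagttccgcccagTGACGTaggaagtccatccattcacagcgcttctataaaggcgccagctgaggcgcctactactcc
Fosb: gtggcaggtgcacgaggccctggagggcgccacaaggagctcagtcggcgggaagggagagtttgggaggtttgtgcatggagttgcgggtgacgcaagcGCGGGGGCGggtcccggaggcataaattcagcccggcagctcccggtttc

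RefSeq promoter windows of 300 bases (250 before and 50 after the start) were at hand for 7 of the 10 genes, and Fosl1, Egr1 and Myc had no entry. The 7 motifs were searched on both strands: TGACTCA (the classical AP-1 element), TGACGTCA (the full CREB/ATF element), its core TGACGT, TGACATCA, TGACNNNGC (the antioxidant response element), GCGNGGGCG and the CArG box of serum response factor. TGACGTCA contains TGACGT, so that these matches overlap. The only other match was GCGNGGGCG in the Fosl2 window, at positions -79 to -71. Of 32851 windows of the same length over all genes, 3.62% held TGACATCA, 7.51% held TGACGT and 5.55% held GCGNGGGCG. TGACTCA was found in 5.2%, TGACGTCA in 1.79%, TGACNNNGC in 12.4% and the CArG box in 1.63% of all windows, and in none of the 7 windows of these genes; matches outside these windows were not looked for. The RefSeq start of Jund follows chr8:70697738, upstream of its GENCODE start at 70698949, so that the Jund window does not cover the latter. The Fosl2 window (chr5:32136222-32136521) begins after the GENCODE start of Fosl2 at 32135801, so that its match lies downstream of that start. Matches describe letters, not bound sites.

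Gene-assigned counts lay between 22991598 and 31683376 per library, except for FAC replicate 2 with 52529278, whose file is marked as combined. Hepatocyte markers (Alb, Apoa1, Ttr, Serpina1a, Cyp2e1, Tat) summed to between 11500 and 15800 CPM (counts scaled to library size) in every library, the levels being lower in both pretreated groups (11500 to 12900) than in control and FAC (14600 to 15800). The 6 macrophage markers summed to 286–319 CPM in FAC, 221–255 in control and 116–174 in the pretreated groups, the same order as for several of the genes below. Cd68, a lysosomal protein, made up most of each sum, and the mean of each other macrophage marker stayed below 5 CPM in every group. Clec4f, which marks liver macrophages, had means of 0.50 to 1.17 CPM (10 to 43 reads per library) and was called lower in FAC than in control (log2 fold change -1.08, adjusted p = 0.0456). Of the 5 macrophage markers tested, 1 was called higher in FAC than in control and 1 lower (17.5% and 19.1% of all genes). Mean Csf1r and Adgre1 were higher in FAC (3.61 and 0.82 CPM) than in control (2.73 and 0.72 CPM). Mean Lyz2 and Ptprc were lower in FAC (2.84 and 0.13 CPM against 3.50 and 0.21 CPM). Of the 6 cholangiocyte markers 5 were tested, and 4 of them (Krt19, Krt7, Epcam and Sox9) were called higher in FAC than in control (17.5% of all genes) and lower in each pretreated group than in FAC (19.2% of all genes with liproxstatin-1 and 19.7% with Mito-TEMPO). The cholangiocyte sums were 58.6–68.9 CPM for control, 98.4–123 for FAC, 110–125 for Lip-1+FAC and 104–145 for MT+FAC, where Spp1 made up most of the last 2. Stellate and fibroblast markers summed to 9.21–20.8 CPM and endothelial markers to 26.4–37 CPM, and no marker was without reads in all libraries. In such bulk samples fewer cells of a type and less RNA per cell cannot be told apart. Libraries also differed in the level of short genes relative to long ones: genes of at most 2484 exonic bases minus genes of at least 7595, on the log2 scale, gave 0.09 to 0.35 for control, -0.03 to 0.10 for FAC, -0.28 to -0.04 for Lip-1+FAC and -0.13 to -0.07 for MT+FAC. The part of these marker and length differences in the results was not tested beyond an offset for gene length, with which the number of the 10 genes called in each of the 6 comparisons was 9, 9, 9, 3, 5 and 4, against 9, 9, 9, 3, 5 and 5 without it.

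In FAC against control, 9 of the 10 genes rose, and Jund did not pass the test. Over all 13535 genes tested, 17.5% were called higher and 19.1% lower in that comparison. FAC and control libraries were separate without overlap for 9 of the 10, against 46.2% of all genes. The median log2 fold change was 1.09 over the 10 genes and -0.01 over all genes. Calls rest on edgeR's quasi-likelihood test, at an adjusted p below 0.05 after Benjamini-Hochberg adjustment over all genes tested; this is the source of every adjusted p given, unless another tool is named. The same 9 genes were called under each alternative setting in which they could be tested, including without the deepest library, FAC replicate 2.

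Levels were lower with either pretreatment than with FAC alone. In Lip-1+FAC against FAC, 9 of the 10 genes fell, with 20.7% of all genes called higher and 19.2% lower. In MT+FAC against FAC, 9 fell as well, with 21.2% of all genes called higher and 19.7% lower. The FAC and pretreated libraries did not overlap for 9 genes with liproxstatin-1 (50.8% of all genes) and for 10 with Mito-TEMPO (52.9% of all genes). The median log2 fold change of the 10 genes was -1.11 in either comparison, against 0.001 and -0.001 over all genes. Since these 2 comparisons and FAC against control share the FAC libraries, their values are given side by side and are not independent of each other. Mitochondrial genes held 0.639 to 0.798% of counts in the 6 pretreated libraries and 0.954 to 1.23% in the control and FAC libraries, and lines that name no gene held 18.8 to 19.6% against 20.3 to 24.2% of reads. The part of these differences in the results was not tested.

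**Figure D1:**
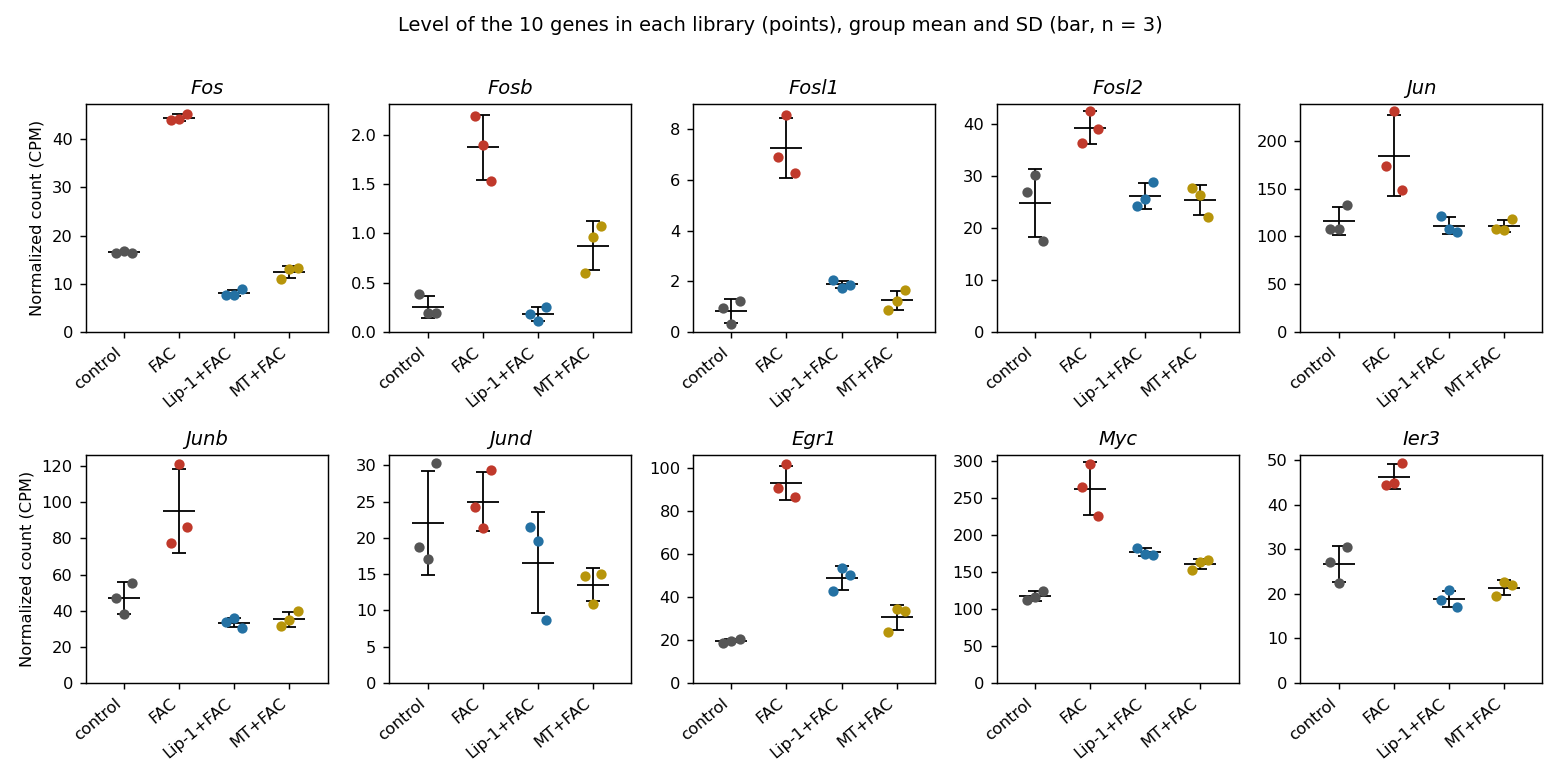
Each panel plots 1 gene, with the normalized count (CPM, linear axis from 0) of every library as a point by group and the mean with its SD (n = 3) as a bar. FAC libraries sit above all others for every gene except Jund, while the means of both pretreated groups lie below control for Fos, Jun, Junb, Jund and Ier3 and between control and FAC for Fosl1, Fosl2, Egr1 and Myc, and for Fosb the Lip-1+FAC mean lies below control and the MT+FAC mean above it.

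Fos encodes the founding FOS protein, lies at chr12:85473890-85477273 on the plus strand (GRCm38) and shares no exonic base with another gene. Its level was 16.4, 16.8 and 16.4 CPM in the control libraries and 44.0, 44.1 and 45.3 in the FAC libraries. With liproxstatin-1 it was 7.61, 7.72 and 8.84 CPM, and with Mito-TEMPO 11.1, 13.1 and 13.2 CPM. The 4 groups were fully separate, in the order FAC, control, MT+FAC and Lip-1+FAC, so that both pretreated groups lay below untreated cells. Fos rose 2.69-fold with FAC (log2 fold change 1.43, SE 0.09, adjusted p = 4.65e-09). It was 5.53-fold lower with liproxstatin-1 than with FAC alone (log2 fold change -2.47, 95% interval -2.67 to -2.26, adjusted p = 1.67e-11) and 3.57-fold lower with Mito-TEMPO (-1.84, -2.03 to -1.64, adjusted p = 1.23e-09). Against control it was 2.06-fold lower with liproxstatin-1 (adjusted p = 5.61e-07) and 1.33-fold lower with Mito-TEMPO (adjusted p = 0.00595). The pretreatments themselves differed, Fos being 1.55-fold higher with Mito-TEMPO (log2 fold change 0.63, SE 0.10, adjusted p = 0.00226).

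Fosb, at chr7:19302696-19310051 on the minus strand, encodes a FOS protein that is made in a full-length and a shortened form. It was the least abundant of the 10 genes, with 5 to 9 reads per control library. The control libraries held 0.385, 0.188 and 0.197 CPM and the FAC libraries 2.19, 1.90 and 1.53 CPM. Levels were 0.182, 0.107 and 0.254 CPM with liproxstatin-1, which overlaps control, and 0.594, 0.958 and 1.08 CPM with Mito-TEMPO, which lies between control and FAC without overlap. Fosb rose 7.30-fold with FAC (log2 fold change 2.87, 95% interval 1.99 to 3.75, adjusted p = 3.61e-05) and was 10.3-fold lower with liproxstatin-1 than with FAC alone (-3.37, -4.29 to -2.45, adjusted p = 8.61e-06). With Mito-TEMPO it was 2.15-fold lower than with FAC alone (-1.11, -1.85 to -0.36, adjusted p = 0.0184). This call was lost without FAC replicate 1, FAC replicate 2 or MT+FAC replicate 1 (adjusted p = 0.0592, 0.0536 and 0.09). The range was 0.0124 to 0.09 over the 15 alternatives that gave Fosb a value. Fosb stayed above control with Mito-TEMPO (log2 fold change 1.76, adjusted p = 0.00881) but was not called against control with liproxstatin-1 (-0.50, -1.64 to 0.64, adjusted p = 0.523). The difference between the pretreatments was 2.26 on the log2 scale (1.29 to 3.23, adjusted p = 0.0191), higher with Mito-TEMPO. It lost its call without Lip-1+FAC replicate 1 or 2 or MT+FAC replicate 2 or 3 (adjusted p = 0.0888, 0.1, 0.079 and 0.0945). The range was 0.00188 to 0.1 over the 13 alternatives that gave Fosb a value. With DESeq2, and with genes below a mean CPM of 5 left out, Fosb had no adjusted p here.

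Fosl1 encodes FRA-1, a FOS protein that lacks the transactivation domain of FOS, and lies at chr19:5447547-5455946 on the plus strand. Of its exonic bases 57.21% are shared with Ccdc85b on the opposite strand, and the counts used here leave out reads in that overlap, so that they are a lower bound. The control libraries held 0.940, 0.30 and 1.22 CPM and the FAC libraries 6.91, 8.56 and 6.26 CPM. Levels were 2.04, 1.75 and 1.86 CPM with liproxstatin-1 and 0.875, 1.21 and 1.64 CPM with Mito-TEMPO. FAC libraries lay above all others, and MT+FAC overlapped control while Lip-1+FAC did not. Fosl1 rose by 3.15 on the log2 scale with FAC (2.48 to 3.83, adjusted p = 8.73e-07), an interval that overlaps that of Fosb. It fell by 1.95 with liproxstatin-1 (adjusted p = 3.78e-05) and by 2.57 with Mito-TEMPO (adjusted p = 3.96e-06), both against FAC alone on the log2 scale. Against control it remained higher with liproxstatin-1 (log2 fold change 1.21, adjusted p = 0.0138), whereas with Mito-TEMPO the change was 0.59 (-0.17 to 1.34, adjusted p = 0.273).

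When reads on either strand were summed, so that reads in the overlap counted for both genes and the value is an upper bound, Fosl1 stood at 9.20, 6.58 and 7.09 CPM in control and 54.5, 54.6 and 43.5 CPM in FAC. The summed levels were 15.2, 18.3 and 17.1 CPM with liproxstatin-1 and 8.22, 16.6 and 14.6 CPM with Mito-TEMPO. The direction of each of these changes was the same on both counts, but the levels differed several-fold. On the summed counts the rise with FAC was 2.75 on the log2 scale (adjusted p = 3.46e-06), and the value for Mito-TEMPO against control was called (0.77, adjusted p = 0.0397). The range of the latter was 0.0397 to 0.736 over the 14 alternatives that gave Fosl1 a value. Reads in the rest of Ccdc85b were at 2.78 to 3.83 CPM in control and 5.05 to 8.37 CPM in FAC, so that the neighbour was also higher in each FAC library than in each control library; without strand, reads in the overlap cannot be assigned to either gene.

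Fosl2 encodes FRA-2, the other FOS protein without that domain, at chr5:32135801-32157842 on the plus strand. Control libraries held 26.9, 30.1 and 17.5 CPM and FAC libraries 36.3, 42.5 and 39.1 CPM. Levels were 24.2, 25.5 and 28.9 CPM with liproxstatin-1 and 27.7, 26.3 and 22.2 CPM with Mito-TEMPO, both within the control range. The rise with FAC was modest, 1.58-fold (log2 fold change 0.66, 0.33 to 1.00, adjusted p = 0.00424). Fosl2 fell by 0.59 with liproxstatin-1 (adjusted p = 0.00813) and by 0.63 with Mito-TEMPO (adjusted p = 0.00527) on the log2 scale against FAC alone. Against control the changes were 0.08 (-0.27 to 0.42) and 0.03 (-0.31 to 0.37), neither called. Control replicate 3, with the lowest Fosl2, was also the library in which short genes were highest relative to long ones (0.35).

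Of the JUN family, Jun, at chr4:95049034-95052222 on the minus strand, is a single-exon gene whose product is the usual partner of FOS proteins. It stood at 108, 108 and 133 CPM in control and at 174, 232 and 148.7 CPM in FAC. The pretreated groups held 121, 108 and 104 CPM with liproxstatin-1 and 107, 107 and 118 CPM with Mito-TEMPO, which overlap control and each other. Jun rose 1.59-fold with FAC (log2 fold change 0.67, 0.35 to 0.99, adjusted p = 0.00373) and was 1.67-fold lower in either pretreated group than in FAC (adjusted p = 0.00195 and 0.00184). Its changes against control were -0.07 in either pretreated group, with an interval of -0.39 to 0.25 for each, and were not called.

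Junb, at chr8:84974484-84978718 on the minus strand, encodes a JUN protein that can act against JUN as well as with FOS proteins. Control libraries held 47.3, 38.3 and 55.5 CPM and FAC libraries 77.6, 121 and 86.4 CPM, with the deepest library the highest. Levels were 33.6, 35.8 and 30.7 CPM with liproxstatin-1, all below control, and 31.4, 34.8 and 39.7 CPM with Mito-TEMPO, which overlaps control. Junb rose 2.03-fold with FAC (log2 fold change 1.02, adjusted p = 0.000909), was 2.86-fold lower with liproxstatin-1 (-1.52, adjusted p = 5.39e-05) and 2.71-fold lower with Mito-TEMPO (-1.44, adjusted p = 8.72e-05). Against control the change with liproxstatin-1 was -0.49 (-0.89 to -0.10, adjusted p = 0.0603); it passed in 4 settings, without control replicate 2 (adjusted p = 0.0249), in DESeq2 (0.00849), with genes below a mean CPM of 5 left out (0.0393) and with the 2 groups alone (0.015), with a range of 0.00849 to 0.223 over all alternatives. With Mito-TEMPO it was -0.42 (-0.81 to -0.02, adjusted p = 0.13), and adjusted p-values over all alternatives ran from 0.0419, in DESeq2, to 0.393.

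Jund encodes the JUN protein that is usually present in resting cells, and lies at chr8:70698949-70700616 on the plus strand. Of its exonic bases 52.58% are shared with Gm11175, an antisense gene that lies entirely within it, so that its counts are a lower bound as well. Control libraries held 18.8, 17.0 and 30.3 CPM, FAC libraries 24.3, 21.3 and 29.3 CPM, Lip-1+FAC libraries 21.5, 19.6 and 8.63 CPM and MT+FAC libraries 14.7, 10.9 and 15.0 CPM. Control and FAC overlapped, and the spread within control and within Lip-1+FAC was wider relative to the mean than for Jun or Junb. The highest control library and the lowest Lip-1+FAC library were those with the highest (0.35) and the lowest (-0.28) level of short genes relative to long ones. Jund was not called with FAC (log2 fold change 0.18, -0.56 to 0.91, adjusted p = 0.723), with liproxstatin-1 against FAC (-0.58, -1.33 to 0.17, adjusted p = 0.197) or with Mito-TEMPO against FAC (-0.88, -1.63 to -0.13, adjusted p = 0.0617). The last was called with DESeq2 (adjusted p = 0.0315), with genes below a mean CPM of 5 left out (0.041) and with the 2 groups alone (0.000315), in a range up to 0.169 over all alternatives.

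The upper bound for Jund, with reads of both strands summed, was 121, 118 and 123 CPM in control and 118, 188 and 132 CPM in FAC. It was 119, 109 and 83.2 CPM with liproxstatin-1 and 112, 98.0 and 103 CPM with Mito-TEMPO. On these counts Jund was called lower in Lip-1+FAC than in FAC (-0.50, adjusted p = 0.0402; up to 0.402 over all alternatives) and in MT+FAC than in FAC (-0.51, adjusted p = 0.0368), and again not in FAC against control (0.29, adjusted p = 0.224). Of the 10 genes Jund was thus the only 1 whose rise with FAC was not called under any setting tried.

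**Figure D2:**
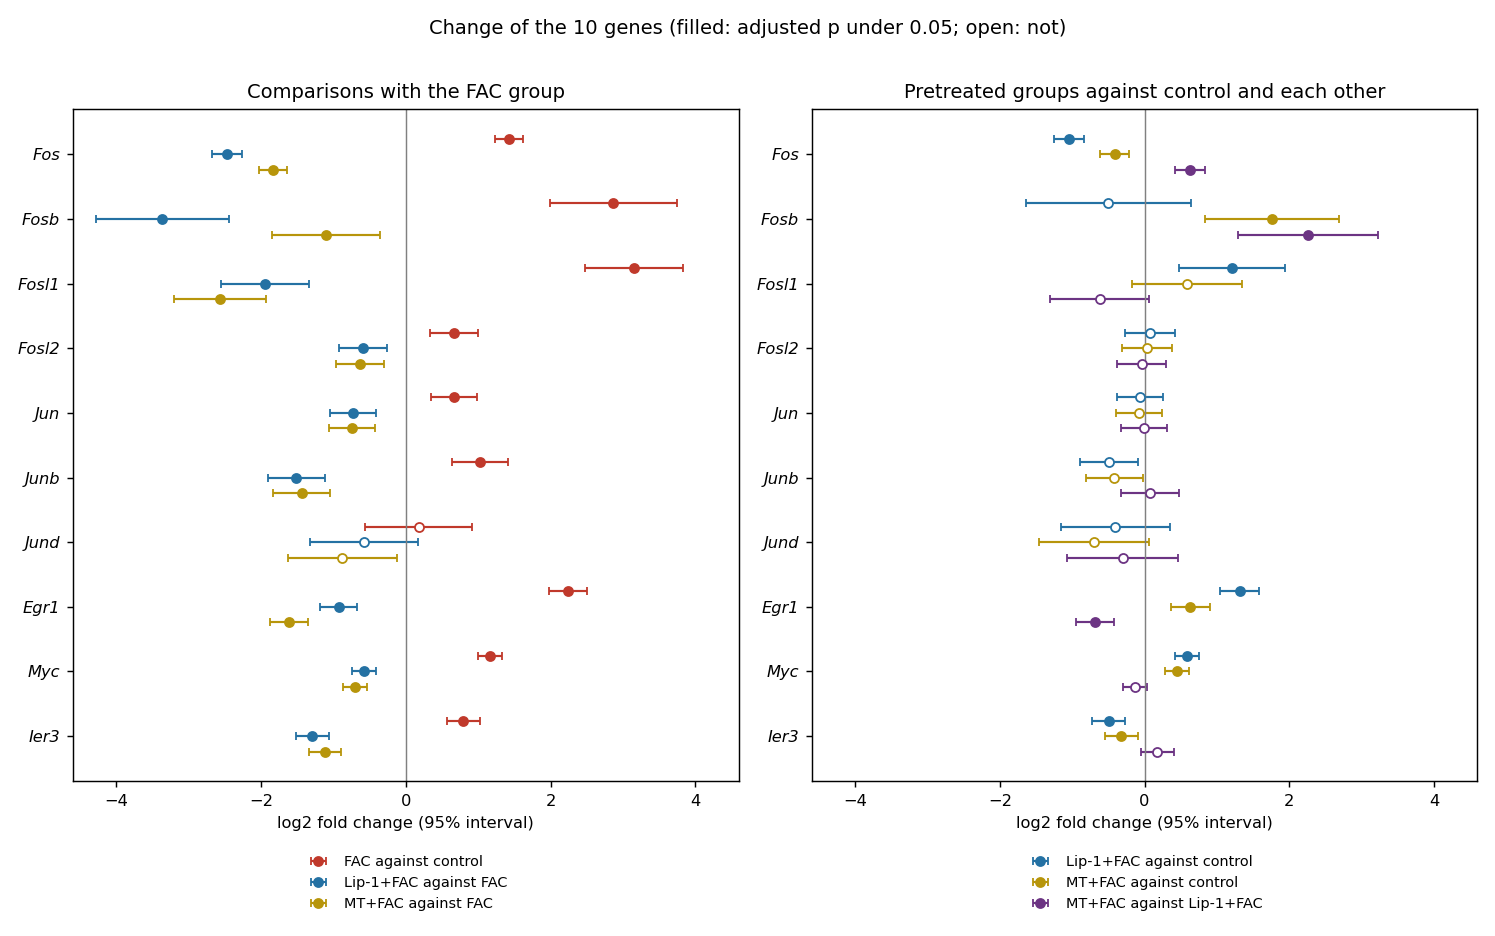
Points are log2 fold changes of the 10 genes with 95% intervals, filled where the adjusted p was under 0.05; the left panel holds the 3 comparisons that share the FAC libraries and the right panel the pretreated groups against control and against each other. Filled points to the right for FAC and to the left for both pretreatments are seen for 9 genes, and Fos, Fosb and Egr1 are the genes with a filled point for MT+FAC against Lip-1+FAC.

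Egr1 encodes a zinc finger factor that binds GC-rich elements, and lies on chromosome 18. Its level was 18.8, 19.8 and 20.5 CPM in control and 90.8, 102 and 86.8 CPM in FAC. It was 42.9, 53.6 and 50.5 CPM with liproxstatin-1 and 23.8, 34.5 and 33.4 CPM with Mito-TEMPO. No groups overlapped, and the order was FAC, Lip-1+FAC, MT+FAC and control, which differs from the order for Fos. Egr1 rose 4.73-fold with FAC (log2 fold change 2.24, SE 0.13, adjusted p = 6.68e-09). It was 1.90-fold lower with liproxstatin-1 than with FAC alone (-0.93, -1.18 to -0.68, adjusted p = 1.7e-05) and 3.06-fold lower with Mito-TEMPO (-1.61, -1.87 to -1.35, adjusted p = 1.5e-07). Egr1 stayed above control in both, by 1.31 with liproxstatin-1 (adjusted p = 2.09e-06) and by 0.63 with Mito-TEMPO (adjusted p = 0.0028) on the log2 scale. Between the pretreatments Egr1 was 1.61-fold lower with Mito-TEMPO (-0.68, -0.94 to -0.42, adjusted p = 0.0106), a call that was lost without Lip-1+FAC replicate 2 (-0.61, adjusted p = 0.0603; 3.85e-12 to 0.0603 over all alternatives).

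Myc, at chr15:61985391-61990374 on the plus strand, encodes a factor that pairs with MAX and drives genes of ribosome production and growth. It had the highest level per length of the 10 genes in each group on the counts used here, in which Jund is a lower bound. Control libraries held 112, 117 and 125 CPM and FAC libraries 266, 297 and 226 CPM. Levels were 183, 174 and 174 CPM with liproxstatin-1 and 153, 164 and 167 CPM with Mito-TEMPO. As for Egr1, the pretreated groups lay between control and FAC without overlap. Myc rose 2.23-fold with FAC (log2 fold change 1.16, SE 0.08, adjusted p = 1.2e-08), was 1.49-fold lower with liproxstatin-1 (adjusted p = 1.79e-05) and 1.63-fold lower with Mito-TEMPO (adjusted p = 2.37e-06). It stayed above control by 0.59 (adjusted p = 2.63e-05) and 0.45 (adjusted p = 0.000782) on the log2 scale. The pretreatments differed by -0.14 (-0.30 to 0.03, adjusted p = 0.493).

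Ier3, at chr17:35821684-35822923 on the plus strand, encodes a small stress-induced protein linked to cell survival. Control libraries held 27.1, 22.4 and 30.5 CPM and FAC libraries 44.5, 44.9 and 49.4 CPM. With liproxstatin-1 Ier3 stood at 18.7, 20.8 and 17.1 CPM, and with Mito-TEMPO at 19.5, 22.5 and 22.1 CPM. FAC libraries were the highest, and Lip-1+FAC libraries lay below control, as for Fos. Ier3 rose 1.74-fold with FAC (log2 fold change 0.80, 0.57 to 1.02, adjusted p = 1.54e-05), and was 2.45-fold lower with liproxstatin-1 (adjusted p = 7.48e-08) and 2.17-fold lower with Mito-TEMPO (adjusted p = 4.62e-07) than with FAC alone. Against control it fell by 0.50 on the log2 scale with liproxstatin-1 (adjusted p = 0.00223). With Mito-TEMPO the change was -0.32 (-0.55 to -0.09, adjusted p = 0.0468), and the groups overlapped. That call was lost without control replicate 1 or 3 or any 1 of the MT+FAC libraries (adjusted p = 0.0717 to 0.236). It was also lost with RLE scaling (0.0526), the 2 groups alone (0.0714), a replicate block (0.0624) and a length offset (-0.09, adjusted p = 0.548). The lowest adjusted p over all alternatives was 0.00796.

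Against control the genes thus split. With liproxstatin-1, 3 of the 10 were higher (Fosl1, Egr1 and Myc) and 2 lower (Fos and Ier3), where 15.4% of all genes were called higher and 14.8% lower. With Mito-TEMPO, 3 were higher (Fosb, Egr1 and Myc) and 2 lower (Fos and Ier3), where 9.71% of all genes were called higher and 10.1% lower. These 2 comparisons share the control libraries. Between the pretreatments, 2 genes were higher with Mito-TEMPO (Fos and Fosb) and 1 lower (Egr1), where 0.465% of all genes were called higher and 0.879% lower. Higher genes made up 34.6% of all calls between the pretreatments and 46.7% with upper-quartile scaling. This split rests on single libraries: it was 17.1% without Lip-1+FAC replicate 1, 22.1% without MT+FAC replicate 2 and 23% without MT+FAC replicate 3, but 51.3% without MT+FAC replicate 1. For Fosl2, Jun and Junb the difference between the pretreatments was -0.04 (-0.38 to 0.30), -0.01 (-0.33 to 0.31) and 0.08 (-0.32 to 0.48) on the log2 scale, and differences within these intervals could not be detected.

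Levels between genes can be compared only per length. As FPKM (counts scaled to library size and exonic length, means of 3 libraries), the order in control was Myc 43.4 ± 2.42 (SD), Jun 36.4 ± 4.51, Ier3 23.6 ± 3.60, Junb 20.4 ± 3.75, Jund 13.2 ± 4.31, Fos 7.03 ± 0.09, Egr1 4.40 ± 0.19, Fosl2 2.57 ± 0.68, Fosl1 0.404 ± 0.233 and Fosb 0.0411 ± 0.0178. Ier3 and Junb did not differ beyond their spread. In FAC the order was Myc at 96.8 FPKM, Jun at 57.9, Junb at 41.3, Ier3 at 40.9, Egr1 at 20.8, Fos at 18.9, Jund at 15.0, Fosl2 at 4.06, Fosl1 at 3.56 and Fosb at 0.30. On these counts Egr1 and Fos stood below Jund in control and above it in FAC. With both strands summed, Jund (118 to 123 CPM in control and 118 to 188 CPM in FAC over 1668 exonic bases) stood above both per length in either group, so that this change of order rests on the lower bound. Among 11876 protein-coding genes, Egr1 moved from the percentile 47.0 in control to 80.3 in FAC, to 67.4 with liproxstatin-1 and to 56.5 with Mito-TEMPO, whereas Jun stayed between 87.8 and 92.5. The place of Fosl1 in this order rests on its lower bound as well.

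Within the FOS family, Fos held 70.1% of the summed FPKM in control and 70.5% in FAC, but 48.3% with liproxstatin-1 and 61.0% with Mito-TEMPO. Fosl2 held 25.4% in control, 15.1% in FAC, 38.2% with liproxstatin-1 and 30.4% with Mito-TEMPO. Fosl1 went from 4.10% in control to 13.2% in FAC. These shares depend on how reads in overlaps are counted: with both strands summed, Fosl1 held 29.8% in control, 53.9% in FAC, 59.4% with liproxstatin-1 and 45.7% with Mito-TEMPO, Fos 51.4%, 37.5%, 22.6% and 35.5%, and Fosl2 18.6%, 8.03%, 17.8% and 17.9%. The share of Fosl2 was thus lowest in FAC on either count, but above control in the pretreated groups on the first count alone. The share of Fos was thus close to equal in control and FAC on the first count and lower in FAC on the second, without overlap (35.4 to 41.1% against 47.2 to 55.3%). The gene of the family that was the most abundant in FAC was Fos on one count and Fosl1 on the other. Within the JUN family, Junb held 29.1% in control, 36.0% in FAC, 24.6% with liproxstatin-1 and 26.4% with Mito-TEMPO, and with both strands summed 14.1%, 19.7%, 11.6% and 12%, in FAC the highest mean on either count. Jund was 18.5% of the JUN family in control by the lower bound and 54.8% by the upper bound. The mean share of Jund was lower in FAC than in control on either count (13.6% and 45.7% in FAC), but on the lower bound the libraries overlapped (9.25 to 17.3% against 16.9 to 21.6%). The mean share of Fos was on either count lower with liproxstatin-1 than in the other groups. These shares are descriptions and were not tested.

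**Figure D3:**
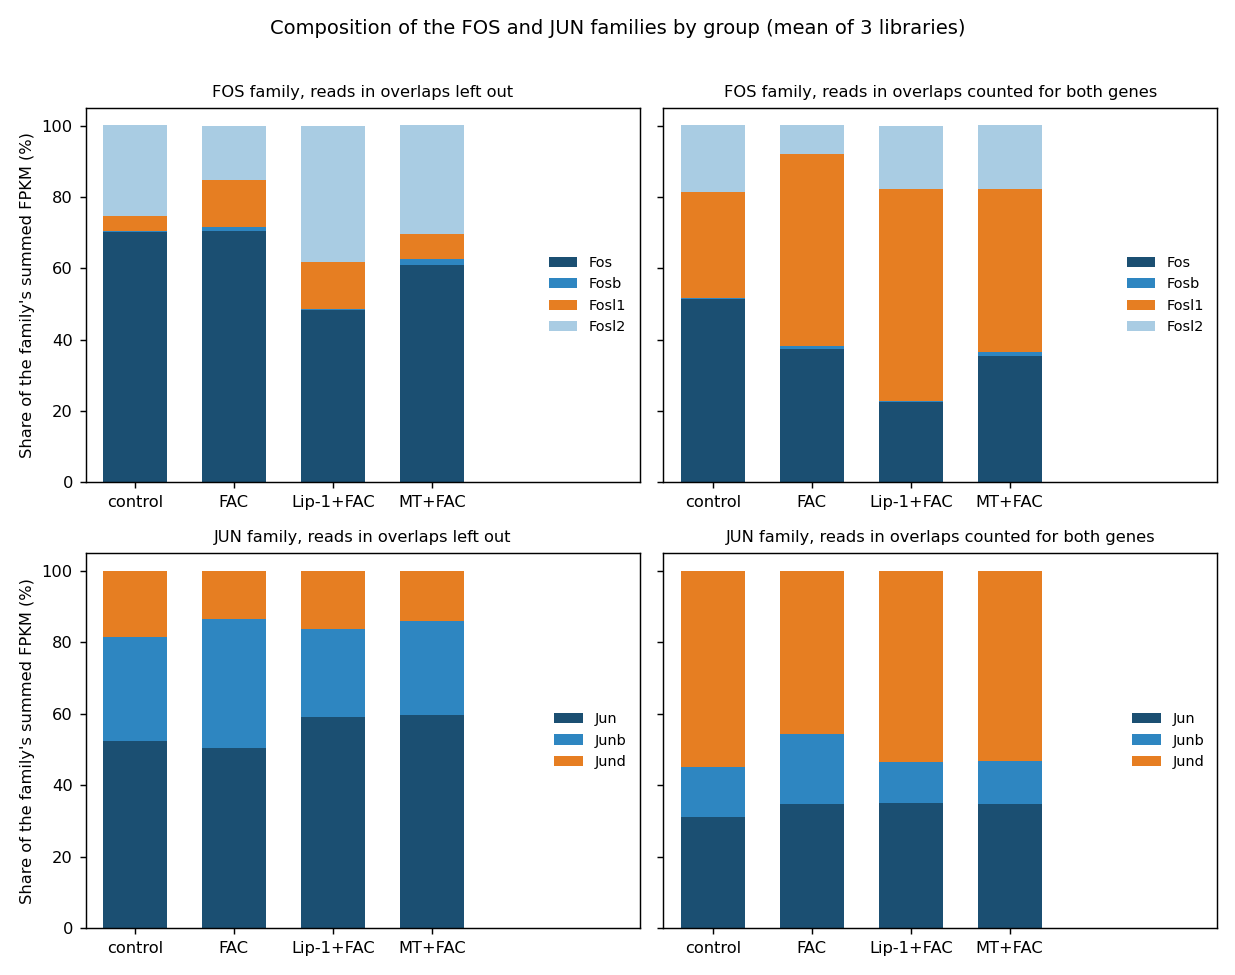
Stacked bars give the mean share (%) of each gene in the summed FPKM of its family for the 4 groups, with reads in overlaps left out (left) or counted for both genes (right). Fosl1 and Jund, in orange, take a much larger share on the right, 53.9% of the FOS family and 45.7% of the JUN family in FAC.

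The pattern of each called gene over the 12 libraries was matched against 8999 other protein-coding genes (9000 for Fosb and Fosl1) by the Pearson correlation of log2 CPM. These values describe 12 libraries that fall into 4 groups and share their scaling. Closest to Fos were Impdh1 (r = 0.99), Akap12 (0.988) and Ccn2 (0.987), and closest to Ier3 were Hmga1 (0.98), Lgals3 (0.98) and Efhd2 (0.979). Tsc22d2 was among the closest 3 to both Egr1 (0.97) and Myc (0.986), beside Zfand2a (0.978) and Ralb (0.971) for Egr1 and Mapkapk3 (0.982) and Klf6 (0.981) for Myc. For Junb they were Arf6 (0.974), Nfkbib (0.973) and Igfbp1 (0.97), and for Jun Zbtb7a (0.975), Gdf15 (0.972) and Zfp574 (0.953). For Fosl1 they were Taf1d (0.962), Dusp4 (0.959) and Ccnl1 (0.958), for Fosl2 Pom121 (0.961), Cep170b (0.96) and Dot1l (0.953), and for Fosb Emp1 (0.954), Ago2 (0.936) and Rcor3 (0.924).

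Most other immediate early genes tested also rose with FAC. Of 35 listed, 29 were tested, and 18 rose and 1 fell, beside 17.5% and 19.1% of all genes, with a median log2 fold change of 0.60. Among the genes called, the largest changes were in Klf4, a zinc finger factor (2.15, SE 0.29, adjusted p = 1.76e-05), Egr2, a relative of Egr1 (2.06, SE 0.48, adjusted p = 0.00247), Maff, a small MAF protein (1.64, SE 0.10, adjusted p = 3.51e-09), and Nr4a1, an orphan nuclear receptor (1.37, SE 0.19, adjusted p = 2.8e-05). Gadd45b, which was named after its value was seen, fell by 0.40 on the log2 scale (adjusted p = 0.0316). Klf4 held 0.750 to 1.14 CPM in control and 3.43 to 5.02 CPM in FAC, and Maff 19.1 to 27.6 and 70.1 to 76.8 CPM.

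With liproxstatin-1, 22 of these 29 genes fell and 2 rose against FAC alone (median -0.71), and with Mito-TEMPO 23 fell and 1 rose (median -0.54). Of all genes, 19.2% were called lower and 20.7% higher with liproxstatin-1, and 19.7% and 21.2% with Mito-TEMPO. Egr2, Klf4, Ccn2 (a secreted matrix protein also called CTGF) and Csrnp1 had the largest falls among the genes called with liproxstatin-1, by 2.69, 2.68, 2.35 and 1.36 on the log2 scale. Among those called with Mito-TEMPO the largest falls were in Egr2, Arc, Klf4 and Ccn2, by 2.34, 2.16, 1.97 and 1.74. Arc was near the floor, with means of 0.156 CPM in MT+FAC and 0.672 in FAC (interval -3.66 to -0.67, adjusted p = 0.0212). It was not called in FAC against control (adjusted p = 0.0802) or with liproxstatin-1 against FAC (0.0919). Mean Egr2 was 2.31 CPM in FAC, 0.354 with liproxstatin-1 and 0.47 with Mito-TEMPO. The genes that rose, named after their values were seen, were Klf10 (0.73) and Nr4a2 (0.88) with liproxstatin-1 and Nr4a2 (0.77) with Mito-TEMPO. Between the pretreatments, Ccn2 (0.62, adjusted p = 0.047), Errfi1 (0.44, adjusted p = 0.000954) and Btg2 (0.34, adjusted p = 0.0154) were higher and Maff (-0.50, adjusted p = 0.0191) lower with Mito-TEMPO. Of all genes, 0.465% were called higher and 0.879% lower there. Errfi1, a feedback inhibitor of the EGF receptor, was at 2010 to 2092 CPM in control and 1956 to 2041 CPM in FAC, a change of -0.05 (adjusted p = 0.601) that was not called. It was lower than control with liproxstatin-1 (-0.80, adjusted p = 4.45e-08) and with Mito-TEMPO (-0.36, adjusted p = 0.000524).

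**Figure D4:**
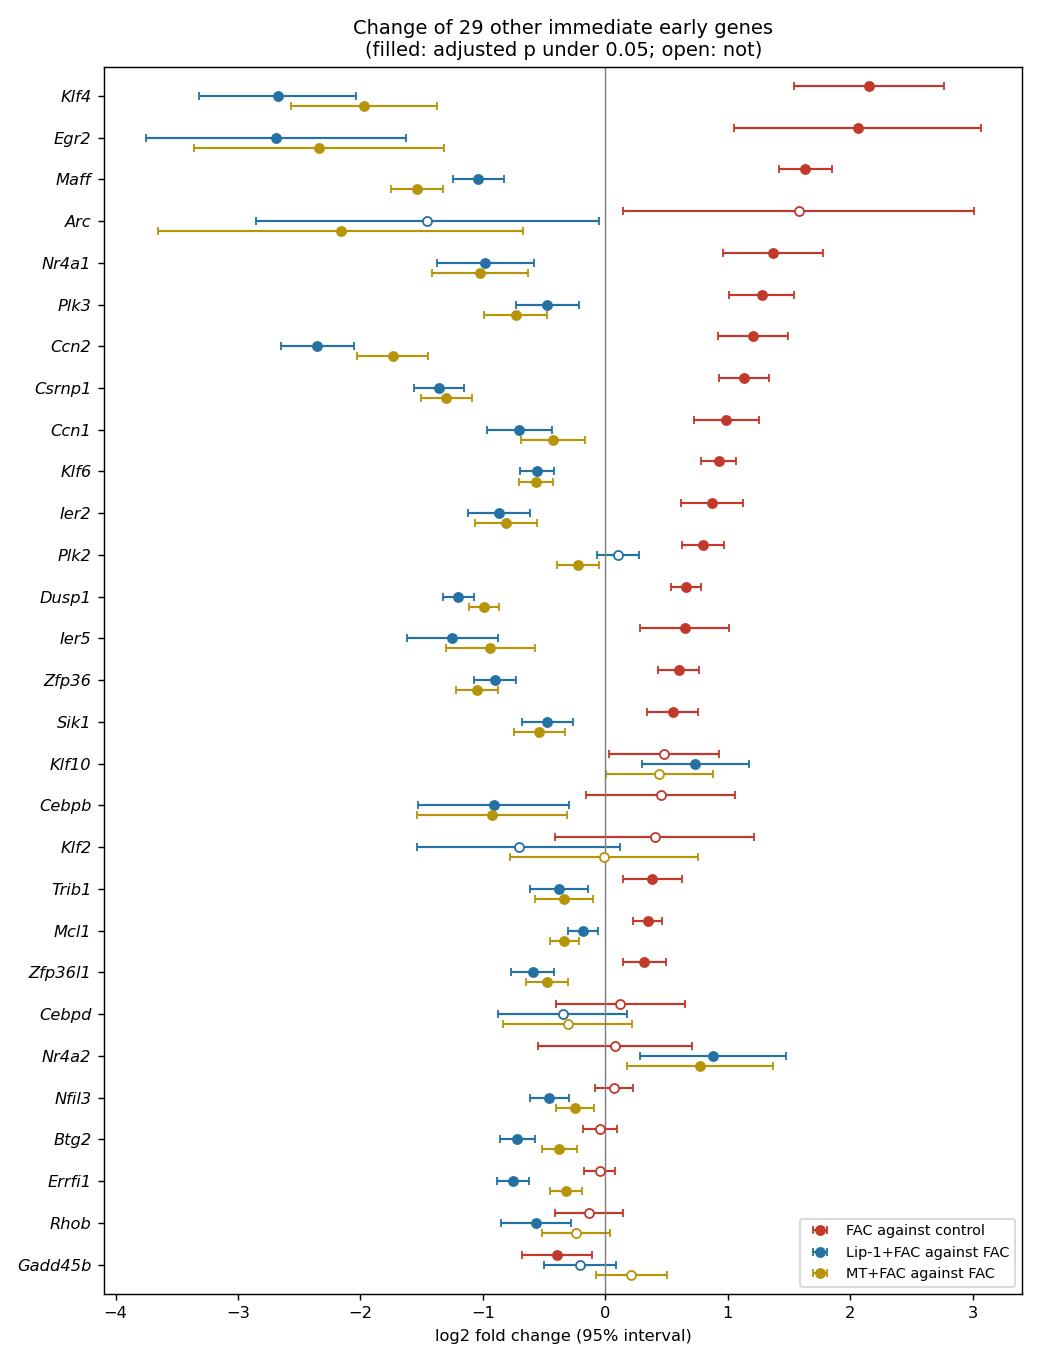
Points are log2 fold changes with 95% intervals of the 29 other immediate early genes tested, sorted by FAC against control and filled where the adjusted p was under 0.05. With FAC 18 points lie filled to the right and 1 to the left, and most genes lie to the left for both pretreatments, with Nr4a2 to the right.

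Among the partners that pair with JUN proteins, 4 of 7 were tested and 3 rose with FAC, where 17.5% of all genes did: Atf3, a stress-induced factor (1.03, adjusted p = 1.48e-07), Atf7 (0.74, adjusted p = 3.02e-05) and Atf2 (0.33, adjusted p = 0.00127). Atf3 went from 64.6–77.2 CPM in control to 136–161 CPM in FAC. It fell by 0.46 with liproxstatin-1 (adjusted p = 0.000459) and by 0.60 with Mito-TEMPO (adjusted p = 4.2e-05) against FAC alone on the log2 scale, and Atf2 fell by 0.26 with Mito-TEMPO (adjusted p = 0.00701). The other partners were not called against FAC alone. They were 3 of 4 with liproxstatin-1 (8138 of all 13535 genes) and 2 of 4 with Mito-TEMPO (7994 of all 13535 genes). Among them Atf2 changed by -0.11 with liproxstatin-1 (adjusted p = 0.234), and Atf7 by -0.06 with liproxstatin-1 (adjusted p = 0.684) and -0.12 with Mito-TEMPO (adjusted p = 0.387). Atf7 was above control in both pretreated groups (0.68, adjusted p = 9.73e-05, and 0.63, adjusted p = 0.000565).

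Of 23 kinases and factors that act upstream, 8 rose and 3 fell with FAC, beside 17.5% and 19.1% of all genes. Among those called, the largest changes were in Map2k6, a kinase of the p38 pathway (-0.90, adjusted p = 0.0125), Nab2, a corepressor that EGR factors induce (0.82, adjusted p = 0.00217), Mapk7, the kinase ERK5 (0.76, adjusted p = 2.6e-05), and Mapk14, the kinase p38 alpha (-0.50, adjusted p = 4.76e-06). With either pretreatment 4 rose and 8 fell against FAC alone, beside 20.7% and 19.2% of all genes with liproxstatin-1 and 21.2% and 19.7% with Mito-TEMPO; the counts of genes that rose are near these shares. Nab2 fell by 0.94 and 1.27 on the log2 scale with liproxstatin-1 and Mito-TEMPO. Srf, which encodes serum response factor, was not called with FAC (0.11, adjusted p = 0.327) but fell by 1.06 with liproxstatin-1 (adjusted p = 3.48e-08) and by 0.56 with Mito-TEMPO (adjusted p = 3.55e-05). It was the only gene of this list called between the pretreatments, 0.50 higher with Mito-TEMPO (adjusted p = 0.00346). Of all genes, 0.465% were called higher and 0.879% lower in that comparison.

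Of 15 textbook AP-1 target genes, 9 passed the filter on low counts. With FAC 4 rose and 5 were not called, beside 17.5% of all genes called higher and 19.1% lower. Among those that rose were Plaur, the urokinase receptor (1.14, adjusted p = 0.000789), and Cd44, a receptor for hyaluronan (0.68, adjusted p = 0.015). Against FAC alone 4 fell and 1 rose with liproxstatin-1, and 3 fell and 1 rose with Mito-TEMPO, where about as many genes of all were called lower (19.2% and 19.7%) as higher (20.7% and 21.2%). Plaur fell by 1.05 with liproxstatin-1 (adjusted p = 0.0012) and by 0.96 with Mito-TEMPO (adjusted p = 0.00204) on the log2 scale, and Cd44 was among the genes that fell in both comparisons. Spp1, which encodes osteopontin and is also among the cholangiocyte markers above, went the other way, rising by 1.22 (adjusted p = 3.34e-05) and 1.24 (adjusted p = 3.53e-05), and was not called with FAC (0.09, adjusted p = 0.666).

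MYC needs MAX, and MAX also pairs with repressors of the MXD family and MNT. In this network 11 of 12 genes were tested, and 5 rose and 3 fell with FAC, beside 17.5% and 19.1% of all genes, led among those called by the repressor Mnt (1.00, adjusted p = 8.2e-05), Mycl (-0.97, adjusted p = 0.000782), Mlxip (0.77, adjusted p = 0.000895) and Mga (0.75, adjusted p = 7.37e-06). Against FAC alone 2 rose and 5 fell with either pretreatment; the count that rose is near the share of all genes called higher (20.7% and 21.2%), beside 19.2% and 19.7% called lower. With liproxstatin-1 the largest changes among those called were falls of the repressors Mxd3, by 1.42 (adjusted p = 0.00668), and Mxd1, by 1.25 on the log2 scale (adjusted p = 2.32e-07). With Mito-TEMPO Mxd1 fell by 1.00 (adjusted p = 3.04e-06) and Mnt by 0.70 (adjusted p = 0.00149), and Mxd3 was not called (-0.82, adjusted p = 0.0795). Mycl rose by 0.95 with liproxstatin-1 (adjusted p = 0.000848) and by 0.94 with Mito-TEMPO (adjusted p = 0.000876). Of 18 MYC target genes, all tested, 12 rose and 6 were not called with FAC, where 17.5% of all genes rose, with small changes (median 0.28) led by Ppan (0.59, adjusted p = 9.07e-05), Nop58 (0.47, adjusted p = 3.37e-05), Rrp12 (0.45, adjusted p = 0.000867) and Nop56 (0.45, adjusted p = 1.5e-05), which serve ribosome assembly. Against FAC alone 8 fell with liproxstatin-1, and 10 fell and 1 (Cad, named after its value was seen) rose with Mito-TEMPO, beside 19.2% and 19.7% of all genes called lower, Npm1 falling by 0.39 and 0.51 on the log2 scale.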

How the data were processed

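Counts of reads per gene were deposited for 12 libraries of primary mouse hepatocytes. Per the labels' protocols, cDNA was amplified with a SMART-Seq v4 kit from total RNA, with no mention of molecular identifiers. Per the submitters' processing notes, STAR and build GRCm38 were used by the authors; the version and annotation are not given in the sources used here. The authors' unstranded count column was used, since 49.9 to 50.0% of stranded reads fell on the first strand; it leaves out reads that overlap exons of 2 genes. Lines that name no gene held 18.8 to 24.2% of reads and stayed out of library sizes. Of 55487 identifiers 55227 matched GENCODE M21, the source of names, positions and lengths.

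Differential expression was tested with edgeR 4.0.16 in R 4.3.3: filterByExpr, TMM scaling (factors 0.989 to 1.01), quasi-likelihood F tests over all 12 libraries with 4 group means, two-sided, Benjamini-Hochberg over 13535 genes, in 6 comparisons. The standard error is the log2 fold change divided by the root of F. CPM are counts scaled by TMM library size. The common biological coefficient of variation was 9.71%. On simulated data for FAC against control (13103 genes, a change of 1 on the log2 scale in 200 of them), 82.9% were recovered and 3.61% of calls were false. The simulation drew every library from control means, with a spread set by level alone. In the data 4960 genes were called in this comparison, so that these rates may not hold there. Replicates differed by more than sampling noise (chi-square per degree of freedom 8.15 to 22.1). Reads are not independent molecules, so counting error understates the error of low genes such as Fosb.

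The 10 genes and the gene lists were chosen with earlier results of these data known. Beside the 10 genes, the rule names up to 4 called genes of each list with the largest change in each of the first 4 comparisons, and, for each gene called with FAC, the 3 closest protein-coding genes (mean CPM 5 or more); genes named outside it were chosen after their values were seen. Alternatives were RLE and upper-quartile scaling, no filter, a mean CPM of at least 5, DESeq2 1.42.0, the compared groups alone, leaving out each library, a replicate block, summed strands, thinning of FAC replicate 2 and, added after seeing the data, a length offset. The values of some AP-1 target genes are not reported here. Near-identical transcripts were searched with blastn 2.17.0+ at 95% identity, and the only matches were the 4 overlapping neighbours.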

Additional observations from a re-analysis of the deposited data

Results flagged for a closer look

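The effect of pretreatment within FAC-treated cells differed between the scavengers, by the test of MT+FAC against Lip-1+FAC, for 3 of the 10 genes, beside 0.465% of all genes called higher and 0.879% lower with Mito-TEMPO. Fos was higher with Mito-TEMPO by a log2 fold change of 0.63, in 3 of 3 libraries. Fosb was higher with Mito-TEMPO by 2.26, in 3 of 3 libraries, at counts of 3 to 6 per Lip-1+FAC library. Egr1 was lower with Mito-TEMPO, with a log2 fold change of -0.68, in 3 of 3 libraries. With edgeR, Fosb was no longer called without Lip-1+FAC replicate 1 or 2 or MT+FAC replicate 2 or 3 (adjusted p = 0.079 to 0.1), and Egr1 was no longer called without Lip-1+FAC replicate 2 (adjusted p = 0.0603), so that without that library 1 of the 10 genes, Fos, was called. With DESeq2, 2 of the 10 genes were called, and Fosb had no adjusted p.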

How the results depend on the processing

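Over all alternatives, 916 values of the 10 genes in 6 comparisons were recomputed; 888 stayed on their side of the threshold, 17 were no longer called and 11 became called. The sign changed in 16, all of uncalled differences of Fosl2, Jun or Junb (7 of the 60 differences, none of them against FAC alone or in FAC against control). In FAC against control all 158 values kept their direction and their side of the threshold. The number of genes called between MT+FAC and Lip-1+FAC depended most on the setting: 182 as reported, 477 without the filter on low counts, 462 with DESeq2, 312 with the 2 groups alone, and 74 to 156 when a library was left out. The cause was not tested. Higher genes made up 49.7% of those calls without the filter and 45.9% with DESeq2, against 34.6%. Of the 10 genes, 1 to 3 were called there when a library was left out, the lowest without Lip-1+FAC replicate 2, against 3 as reported. Same-numbered libraries did not pair: their deviations correlated at -0.249 to 0.164, and 7 of 18 matched best with their own number. With the replicate block, 4863, 5278, 5488, 193, 3961 and 2553 genes were called in the 6 comparisons, and 9, 9, 9, 3, 5 and 4 of the 10 genes, Ier3 in MT+FAC against control being lost (adjusted p = 0.0624). Depth limits Fosb, with 3 to 99 reads per library, and gene overlap limits the levels of Fosl1 and Jund.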
